A study of Mus musculus with 11 samples.

Results

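Chemokine ligands were followed in mouse liver as 10 genes chosen by name, Ccl2, Ccl6, Ccl7, Ccl9, Ccl24, Cxcl1, Cxcl2, Cxcl9, Cxcl10 and Cxcl12, out of 31053 genes in the count matrices. All 10 had a row and all 10 passed the filter on low counts in the comparison of time points. The study applied the Visium assay, which captures polyadenylated RNA from a tissue section on a grid of barcoded spots that each cover several cells, to 11 liver sections. Of these, 3 came from uninjured liver at 0 h (replicates 2, 3 and 4) and 8 from liver injured by acetaminophen (APAP, the group labelled POD), with sections A and B from 24 h, A and B from 36 h, and 4 sections, A to D, from 48 h. Per the study's methods the animals were C57BL/6JCrl mice, adult and male unless stated otherwise, fasted before APAP was injected into the peritoneum. For this assay the methods name 1 liver of 1 mouse for each time, so n counts sections, p-values measure the section-to-section spread alone, and mouse and time cannot be told apart.

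Chemokines are small secreted proteins that bind to the cell matrix, form gradients and draw leukocytes that carry the matching G protein-coupled receptors. Ligands of the CXC family with an ELR motif, such as Cxcl1 and Cxcl2, act on Cxcr2 of neutrophils, whereas Ccl2 and Ccl7 act on Ccr2 of monocytes, and Cxcl9 and Cxcl10, which interferon induces, act on Cxcr3 of T cells. APAP overdose kills the hepatocytes around the central vein, and neutrophils and then monocytes enter that zone.

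Several members lie close to each other in the genome. In the GENCODE vM21 annotation of GRCm38, all 10 are protein coding, and Ccl2 (chr11:82035571-82037453, plus strand) lies next to Ccl7 (chr11:82045712-82047525, plus strand), as Ccl9 (chr11:83572919-83578636) does to Ccl6 (chr11:83587882-83593087), both on the minus strand. On chromosome 5, Cxcl1 (chr5:90891241-90893115) and Cxcl2 (chr5:90903871-90905938) lie on the plus strand, and Cxcl9 (chr5:92321347-92328079), Cxcl10 (chr5:92346638-92348889) and Ccl24 (chr5:135569937-135573049) on the minus strand. Cxcl12 lies alone on chromosome 6 (chr6:117168535-117181367, plus strand).

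RefSeq promoter windows on GRCm38.p6 were at hand for 7 of the 10 members. The 250 bases before the start site are shown for 2 neighbouring pairs, Cxcl1 with Cxcl2 and Cxcl9 with Cxcl10. These were chosen because both genes of the first pair were called higher after APAP, whereas in the second only Cxcl9 was called, as lower. A difference between the changes of Cxcl9 and Cxcl10 was not tested. The windows are chr5:90890995-90891244 for Cxcl1, chr5:90903649-90903898 for Cxcl2, chr5:92328080-92328329 for Cxcl9 and chr5:92348890-92349139 for Cxcl10, each printed 5′ to 3′ on the gene's strand. Those of Cxcl1 and Cxcl2 run past the GENCODE starts given above (90891241 and 90903871). Distances below therefore count from the RefSeq start site. Capitals mark matches on either strand to 4 searched motifs, an NF-kB site (GGG, any 2 bases, then TTTCC), an interferon-stimulated response element (TTTC, any 2 bases, then TTTC), a GAS element (TTC, any 3 bases, then GAA) and TATAAA.
Cxcl1: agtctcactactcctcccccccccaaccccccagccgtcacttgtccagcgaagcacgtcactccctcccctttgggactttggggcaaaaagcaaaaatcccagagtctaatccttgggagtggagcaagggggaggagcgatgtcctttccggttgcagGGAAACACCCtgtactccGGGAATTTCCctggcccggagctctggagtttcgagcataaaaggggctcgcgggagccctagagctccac
Cxcl2: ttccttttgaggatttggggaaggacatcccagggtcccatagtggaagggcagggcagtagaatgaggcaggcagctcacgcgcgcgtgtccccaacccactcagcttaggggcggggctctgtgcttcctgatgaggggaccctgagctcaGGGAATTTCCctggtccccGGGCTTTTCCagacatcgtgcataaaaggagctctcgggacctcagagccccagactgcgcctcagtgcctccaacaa
Cxcl9: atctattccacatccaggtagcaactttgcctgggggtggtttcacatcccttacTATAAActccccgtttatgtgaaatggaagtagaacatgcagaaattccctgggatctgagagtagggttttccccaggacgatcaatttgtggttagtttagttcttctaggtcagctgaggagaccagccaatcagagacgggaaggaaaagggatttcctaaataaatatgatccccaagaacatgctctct
Cxcl10: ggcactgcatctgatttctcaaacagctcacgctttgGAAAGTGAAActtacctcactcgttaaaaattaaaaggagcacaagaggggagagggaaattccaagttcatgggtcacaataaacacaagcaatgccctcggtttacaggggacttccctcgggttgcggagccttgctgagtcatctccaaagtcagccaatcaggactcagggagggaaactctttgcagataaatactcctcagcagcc
The NF-kB letters occurred in 1.41% of 32851 windows in the table. They occurred 2 times before Cxcl1, starting 89 and 71 bases ahead of the start site, and 2 times before Cxcl2, starting 97 and 78 bases ahead of it. Cxcl10 held 1 match to the interferon element, 213 bases ahead of its start site, a motif present in 2.98% of windows. Cxcl9 held none of the NF-kB, interferon or GAS letters and had a TATAAA 195 bases ahead of its start site, as 12.4% of windows had somewhere. The GAS letters, found in 7.02% of windows, were in none of these 4. Among the other 3 members with a window, Ccl9 held an NF-kB match and TATAAA matches, and Ccl6 and Cxcl12 held none of the 4 motifs. Only these exact NF-kB letters were searched, so a window without a match can still hold an NF-kB site. Close variants, such as GGGAAATTCC before Cxcl10 and GGGATTTCC before Cxcl9, were not counted and stand in lower case.

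Spots that passed the filter numbered 1490 to 3466 per section, and their UMIs, the counted molecules, summed to 31292663 to 67045372 per section. The 6 hepatocyte markers (Alb, Ttr, Hp, Hnf4a, Apoa1 and Cyp2e1) summed to between 72897 and 114750 CPM in every section. CPM (counts per section scaled to a common total) is taken after TMM scaling, and since a 3′ assay counts tags and not length, levels are compared between sections and not between genes. TMM placed the median of all 14821 tested genes within 0.05 of 0 on the log2 scale against 0 h, whereas scaling by the plain total put it 0.37, 0.49 and 0.54 above 0 h at 24, 36 and 48 h, so each change below is relative to that median. The share of called genes that were higher then moved from 55.4%, 57.5% and 52.7% to 80.4%, 94.1% and 93.7%. A section sum cannot tell more cells of a type from more RNA per cell. Barcodes are positions on a printed array, so all 4992 were shared by all sections.

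Against 0 h, the same 5 members were higher at each time after APAP, namely Ccl2, Ccl6, Ccl7, Cxcl1 and Cxcl2. At 24 h, 5 of 10 members were called higher and 2 lower (Cxcl9 and Cxcl12), beside 23.1% and 18.6% of all genes tested. At 36 h, 5 were higher and 1 lower (Cxcl12), beside 16.8% and 12.4% of all genes. At 48 h, 5 were higher and 2 lower (Cxcl9 and Cxcl12), beside 23.3% and 20.9%. The median log2 fold change of the 10 members was 1.09, 0.89 and 1.53 at the 3 times. Calls rest on edgeR's quasi-likelihood test with Benjamini-Hochberg adjustment at 0.05, and the 3 comparisons share their 0 h sections. The plot of section levels and the plot of changes from 0 h show every member.

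**Figure D1:**
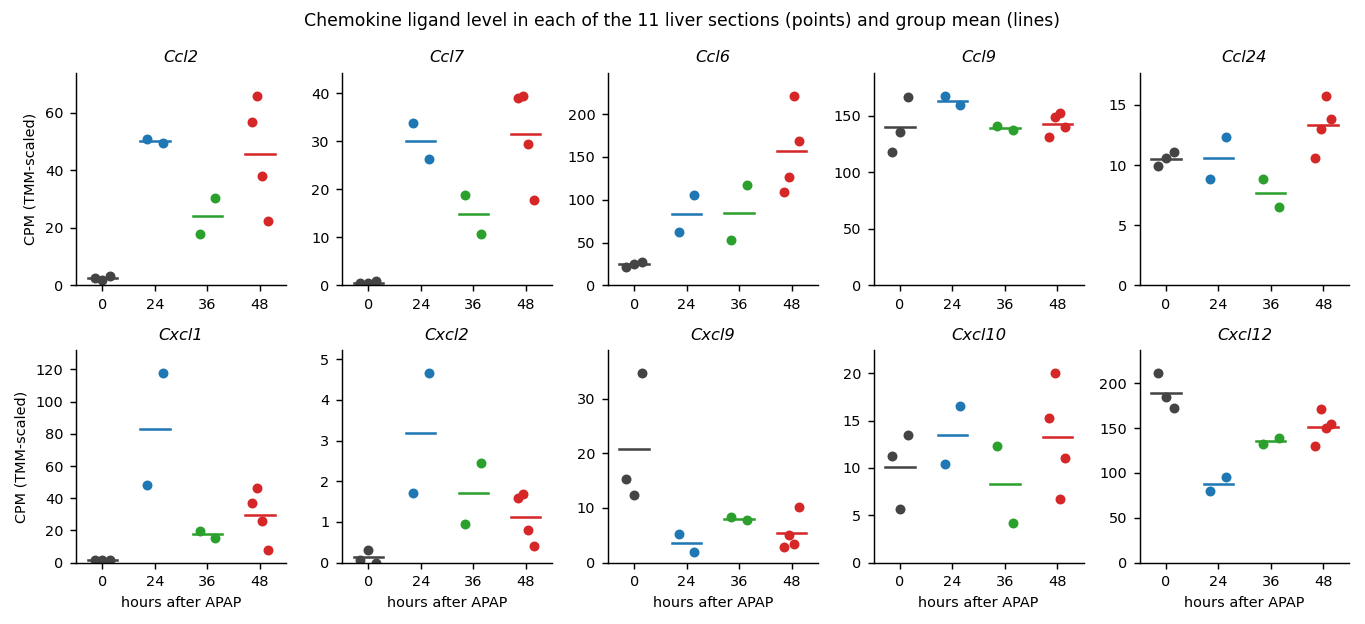
Level of each chemokine ligand in CPM (y axis, linear, from 0) at 0, 24, 36 and 48 h after APAP (x axis), with 1 point per section and a line at the group mean (n = 3, 2, 2 and 4 sections). Ccl2, Ccl7, Ccl6 and Cxcl1 lie above all 0 h sections in all 8 injured sections, Cxcl12 lies below them, and the groups overlap for Ccl9, Ccl24 and Cxcl10.

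The monocyte attractants Ccl2 and Ccl7 rose from near absence. Ccl2, the main ligand of Ccr2, stood at 2.66, 1.79 and 3.11 CPM in the 0 h sections 2, 3 and 4. It measured 50.8 and 49.4 CPM in the 24 h sections, 18.0 and 30.3 in those of 36 h, and 56.8, 65.9, 38.0 and 22.3 in 48 h A to D. No injured section overlapped with 0 h, 36 h A was the lowest after injury and 48 h B the highest. The log2 fold changes were 4.33 ± 0.44 (SE) at 24 h, 3.27 ± 0.43 at 36 h and 4.20 ± 0.41 at 48 h (edgeR adjusted p = 9.06e-05, 0.000973 and 6.51e-05), or 20.1, 9.68 and 18.3 times the 0 h level.

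Ccl7, a close relative of Ccl2 that also binds Ccr2, had 22 to 29 UMIs in each whole 0 h section, or 0.484, 0.423 and 0.819 CPM. Its level was 33.7 and 26.4 CPM at 24 h, 18.9 and 10.8 at 36 h, and 39.1, 39.5, 29.5 and 17.8 in 48 h A to D. The injured sections lay far above 0 h without overlap, with 36 h B lowest. The fold changes were 53.8, 26.6 and 56.2 (log2 5.75 ± 0.43, 4.73 ± 0.43 and 5.81 ± 0.41, edgeR adjusted p = 2.75e-05, 0.000236 and 1.89e-05).

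Ccl6 and Ccl9, CC ligands that bind Ccr1 and are made by myeloid cells, differed from each other although their genes are neighbours. Ccl6 was already present at 0 h, at 21.8, 24.8 and 27.4 CPM. It measured 61.8 and 105.8 CPM at 24 h, 52.7 and 116.8 at 36 h, and 108.6, 126.9, 221 and 169 at 48 h, so that 48 h C was the highest section. Its log2 fold changes were 1.77 ± 0.37, 1.78 ± 0.37 and 2.67 ± 0.34 (edgeR adjusted p = 0.00395, 0.00696 and 0.000254). Leaving out 36 h B ended the 36 h call, at 1.10 with an adjusted p of 0.0825.

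Ccl9 gave no call at any time. It measured 118, 135 and 166 CPM at 0 h, 167 and 159 at 24 h, 141 and 137 at 36 h, and 131, 149, 152 and 139.8 at 48 h. All later groups lay within or next to the 0 h range. Scaled by the plain total, Ccl9 was called higher at each of the 3 times, a setting under which the median gene also moved up.

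Ccl24, an eosinophil attractant that acts on Ccr3 and that Kupffer cells express, was at 9.88, 10.6 and 11.04 CPM at 0 h. Its later levels were 8.86 and 12.3 at 24 h, 8.87 and 6.53 at 36 h, and 10.6, 13.004, 15.7 and 13.8 at 48 h. No comparison with 0 h was called. The closest to a call was 48 h against 36 h, where both 36 h sections lay below all 4 sections at 48 h (log2 0.79 ± 0.19, edgeR adjusted p = 0.0539).

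The neutrophil attractants Cxcl1 and Cxcl2 were higher at all 3 times and had their highest section at 24 h. Cxcl1 stood at 1.28, 1.29 and 1.27 CPM at 0 h. Section 24 h A reached 48.2 CPM and 24 h B 118, and measured 19.8 and 15.2 at 36 h and 37.3, 46.6, 26.0 and 7.92 at 48 h. Every injured section lay above 0 h, and 24 h B stood apart from all others. The fold changes were 64.7 at 24 h, 13.7 at 36 h and 23.0 at 48 h (log2 6.02 ± 0.70, 3.77 ± 0.67 and 4.52 ± 0.63, edgeR adjusted p = 0.000197, 0.00373 and 0.000455). Without 24 h B the log2 change at 24 h was 5.23, still called.

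Between injured times, Cxcl1 was not called. It was lower at 36 h than at 24 h by a log2 difference of -2.24 ± 0.68 (edgeR adjusted p = 0.0508), with no overlap between the 2 groups, and at 48 h against 24 h the difference was -1.49 ± 0.54 (adjusted p = 0.0555). Without 48 h D, both passed, at adjusted p = 0.0104 and 0.0274, and without 48 h B the second passed at 0.0372. DESeq2 (adjusted p = 0.0148) and relative log expression scaling (0.0492) also called the first.

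Cxcl2 was rare throughout. The 0 h sections held 3, 17 and 0 UMIs. A count of 0 allows up to 3 UMIs in that section, which limits counting error only. The injured sections held 79 and 146 UMIs at 24 h, 33 and 86 at 36 h, and 109, 84, 56 and 28 at 48 h. In CPM this was 0.066, 0.313 and 0 at 0 h and 1.70 and 4.66 at 24 h, then 0.956 and 2.45 at 36 h and 1.58, 1.69, 0.803 and 0.405 at 48 h. All injured sections lay above 0 h, 48 h D by little. The log2 fold changes were 4.46 ± 0.92, 3.57 ± 0.94 and 2.96 ± 0.85 (edgeR adjusted p = 0.0036, 0.0187 and 0.0181). Leaving out 1 section moved these from 3.57 (without 24 h B) to 6.30 (without 0 h replicate 3) at 24 h, from 2.73 (without 36 h B) to 5.43 at 36 h and from 2.48 (without 0 h replicate 4) to 4.82 at 48 h, the last 2 upper values without 0 h replicate 3. The 36 h call was lost without 0 h replicate 2 (adjusted p = 0.0642) or 36 h B (0.141), and the 48 h call without 0 h replicate 2 (0.068).

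Of the 2 CXC ligands of Cxcr3, Cxcl9 was called lower at 24 h and 48 h and Cxcl10 at no time, and the difference between them was not tested. Cxcl9, which interferon gamma induces, measured 15.4, 12.4 and 34.7 CPM at 0 h, with section 4 well above the others. It stood at 5.27 and 1.98 CPM at 24 h, 8.26 and 7.73 at 36 h, and 2.84, 5.11, 3.41 and 10.2 at 48 h, all below the lowest 0 h section. The log2 changes were -2.49 ± 0.68 at 24 h, -1.38 ± 0.64 at 36 h and -1.94 ± 0.51 at 48 h (edgeR adjusted p = 0.0152, 0.13 and 0.0118), so that 36 h was not called. Without 24 h A the 24 h change was -3.39. Leaving out 24 h B ended the 24 h call (-1.98, adjusted p = 0.111) and leaving out 0 h replicate 4 the 48 h call (-1.37, adjusted p = 0.0532).

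Cxcl10, the other ligand of Cxcr3, was at 11.2, 5.63 and 13.4 CPM at 0 h. Its levels were 10.4 and 16.5 CPM at 24 h, 12.3 and 4.22 at 36 h, and 15.3, 20.01, 6.70 and 11.1 in 48 h A to D. The groups overlapped throughout and no comparison was called.

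Cxcl12, the ligand of Cxcr4 that stromal and endothelial cells make in the resting state, fell at 24 h and was nearer to its resting level afterwards. It was at 211, 184 and 173 CPM at 0 h, 79.6 and 95.3 at 24 h, 132.0 and 139 at 36 h, and 129.8, 171, 150.3 and 154 at 48 h. No injured section reached the lowest 0 h section. The log2 changes were -1.11 ± 0.15, -0.49 ± 0.14 and -0.32 ± 0.12 (edgeR adjusted p = 0.000252, 0.0278 and 0.0439). At 36 h the call was lost without 0 h replicate 2 (adjusted p = 0.0896), 0 h replicate 3 (0.0573), 36 h A (0.0822) or 36 h B (0.0798), and at 48 h without 0 h replicate 2 (0.182), 0 h replicate 3 (0.0871), 48 h A (0.102), 48 h C (0.0827) or 48 h D (0.0679). Scaled by the plain total, the 48 h change turned to 0.20 and the 36 h call was lost, whereas the 24 h call held.

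**Figure D2:**
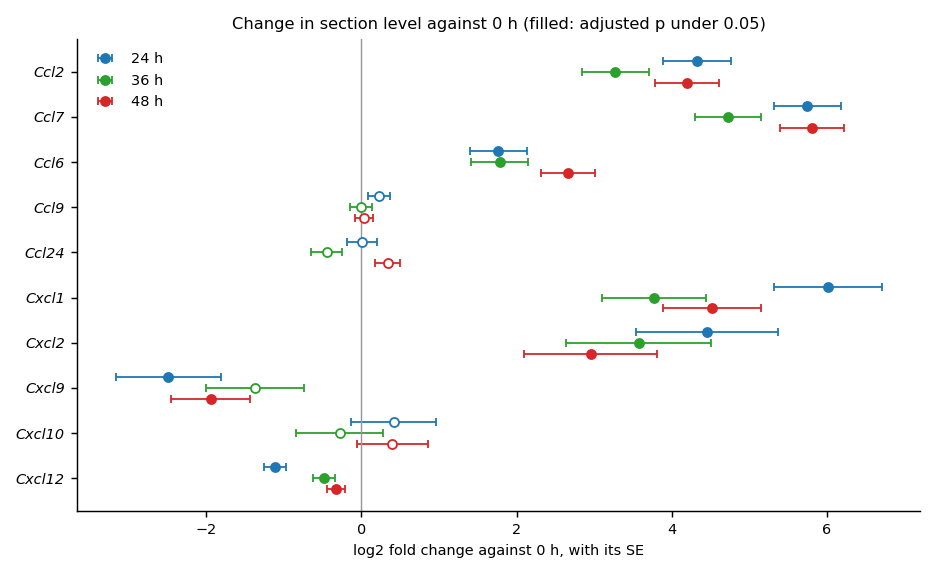
Log2 fold change of each ligand against 0 h (x axis) at 24, 36 and 48 h, with bars of 1 SE and filled points where the adjusted p was under 0.05. Ccl2, Ccl7, Ccl6, Cxcl1 and Cxcl2 lie to the right at all 3 times, and Cxcl9 and Cxcl12 lie to the left.

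Among injured times, edgeR called Cxcl12 and no other member. It was higher at 36 h than at 24 h by 0.63 ± 0.16 on the log2 scale (edgeR adjusted p = 0.0246) and higher at 48 h than at 24 h by 0.79 ± 0.14 (adjusted p = 0.00219), and both later groups lay above both 24 h sections. Of all genes, 15.6% were called in either direction in the first of these comparisons and 34.1% in the second. The 36 h call was lost without 24 h A (adjusted p = 0.154) or 36 h B (0.0633), and when only the groups compared were fitted (0.187). For 48 h against 36 h, edgeR called 0 of 10 members, beside 3.05% of all genes, with 4 of 10 at an unadjusted p under 0.05. DESeq2 called 2 of 10 there, Ccl7 and Ccl24, both higher at 48 h.

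Receptors for these ligands were measured from a list of 16, of which 14 passed the filter. Those higher than at 0 h numbered 5 at 24 h, 5 at 36 h and 7 at 48 h, and those lower 3, 3 and 2, to be read beside the shares of all genes called higher and lower given above (23.1% and 18.6%, 16.8% and 12.4%, 23.3% and 20.9%). Ccr2, the receptor of Ccl2 and Ccl7 on monocytes, rose from a mean of 0.87 CPM to 3.78, 7.46 and 10.7 CPM (log2 2.13 ± 0.38, 3.12 ± 0.37 and 3.65 ± 0.34, edgeR adjusted p = 0.00142, 0.000549 and 4.36e-05). Ccr1, the receptor of Ccl6 and Ccl9, rose from 0.0736 CPM to 3.15, 3.60 and 4.37 CPM. Cxcr4 rose from 0.315 CPM to 1.97, 1.83 and 1.61 CPM, and Cx3cr1, the fractalkine receptor of monocytes, from 0.235 to 1.21, 3.56 and 2.59 CPM.

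Ackr3, a scavenger of Cxcl12, was higher at 48 h, at 1.95 CPM against 0.636 at 0 h (log2 1.62 ± 0.48, edgeR adjusted p = 0.0191). Ackr1, a scavenger on venular endothelium, fell from 1.98 CPM to 0.936, 0.892 and 1.11 CPM. Ackr2 measured 1.75, 2.49, 1.88 and 1.53 CPM and was not called. Without 24 h B, the 24 h calls of Cxcr4 (adjusted p = 0.142), Ackr1 (0.0751) and Cx3cr1 (0.0588) were lost, and without 36 h B the 36 h calls of Cxcr4 (0.132) and Ackr1 (0.0782). Leaving out 0 h replicate 3 (0.0772) or 0 h replicate 4 (0.0589) ended the call of Ackr3. Ackr1 was also not called at 36 h (-0.71) and 48 h (-0.30) when sections were scaled by the plain total. A further 8 of the 16 receptors stayed under a mean of 1 CPM at every time, among them Cxcr2, the receptor of Cxcl1 and Cxcl2, which was called higher at all 3 times, and Cxcr3, which was not called.

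Of 27 other ligands listed, 26 had a row and 21 gene rows passed the filter, Ccl19 and Ccl21a having 2 rows each, which makes their split uncertain. Of these, 9, 5 and 10 were called higher than at 0 h at the 3 times, and 2, 2 and 3 lower, beside the same shares of all genes. The macrophage ligands Ccl3 and Ccl4 rose, Ccl3 from 0.164 CPM to 3.57, 1.98 and 6.31 CPM and Ccl4 from 0.666 to 9.34, 2.38 and 8.34 CPM. Pf4, a ligand of platelets and macrophages, rose from 5.47 CPM to 23.3, 35.7 and 94.6 CPM, and Cxcl14 from 3.11 to 28.7, 12.6 and 12.5 CPM. Cxcl16, the ligand of Cxcr6, was called at 48 h alone (log2 0.45 ± 0.15, edgeR adjusted p = 0.0283), as was Cx3cl1 (1.19 ± 0.38, adjusted p = 0.0258).

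Cxcl13, a B cell attractant, fell from 3.79 CPM to 1.26, 1.16 and 0.559 CPM. Ccl25 was lower at 36 h (log2 -0.66 ± 0.21, edgeR adjusted p = 0.0384) and 48 h (-0.77 ± 0.17, adjusted p = 0.00417), and Ccl27a at 48 h (-0.73 ± 0.22, adjusted p = 0.0214). Ccl5 measured 5.50, 7.41, 10.6 and 10.0 CPM and was not called. The higher row of Ccl19 measured 1.081, 1.60, 1.05 and 1.62 CPM and that of Ccl21a 1.18, 0.0482, 0.144 and 0.4934 CPM, neither called. Several of these calls rested on 1 section. Without 24 h B, the 24 h call of Pf4 was lost (adjusted p = 0.108). Without 36 h B, those of Pf4 (0.0889), Cxcl14 (0.0964) and Ccl25 (0.261) at 36 h were lost. Without 36 h A, Ccl4 was no longer called at 36 h (0.0581), and Ccl25 lost its 36 h call in 7 of 11 omissions. Scaled by the plain total, Ccl25 was no longer called at 36 h (-0.21, adjusted p = 0.427) or 48 h (-0.24, 0.244), nor Ccl27a at 48 h (-0.20, 0.443), and fitting only the groups compared ended the 36 h call of Ccl25 (0.0885). The 48 h call of Cxcl16 was lost in 5 omissions, that of Ccl27a in 3 and that of Cx3cl1 in 3.

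Genes that induce chemokines or feed back on NF-kB were listed as 11, with 9 tested. Tnf, an inducer of Cxcl1 and Ccl2, rose from 0.209 CPM to 2.59, 0.834 and 1.19 CPM, and the NF-kB feedback genes Tnfaip3 and Nfkbiz were also called higher at all 3 times. The feedback gene Nfkbia went the other way, with a mean of 54.8 CPM at 0 h and 41.1, 40.3 and 40.8 CPM at 24, 36 and 48 h. Il1b, another inducer, was lower at 36 h and 48 h, at 2.94 and 5.83 CPM against 15.7 CPM at 0 h and 16.2 CPM at 24 h. In all, 4 were higher and 1 lower at 24 h, 3 and 3 at 36 h, and 5 and 2 at 48 h, beside the same shares.

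Markers of neutrophils and of recruited monocytes were mostly higher after APAP, those of resident macrophages were mixed. Among Kupffer cell markers, Marco averaged 16.1 CPM at 0 h and 263 at 24 h, whereas Clec4f averaged 157 and 77.3 CPM. All 7 tested neutrophil markers of 8 listed were higher at each time, beside 23.1%, 16.8% and 23.3% of all genes. Their summed level was 3.28 to 9.18 CPM at 0 h, 42.5 to 147 at 24 h, 26.0 to 71.7 at 36 h and 38.2 to 117 at 48 h. Of 7 recruited monocyte markers, 5, 4 and 6 were higher at 24, 36 and 48 h, beside the same shares, and Chil3 rose from a mean of 0.0839 CPM to 18.2, 37.4 and 64.3. Most of the summed level of that list came from Fn1, which hepatocytes also make, with a mean of 972 CPM at 0 h. Sinusoidal endothelial markers summed to 349 to 394 CPM at 0 h, 204 to 205 at 24 h, 209 to 288 at 36 h and 208 to 251 at 48 h, and stellate cell markers to 578 to 712, 260 to 310, 290 to 441 and 410 to 562 CPM. At 24 h 4 of 7 endothelial and 5 of 7 stellate markers were lower, beside 18.6% of all genes, whereas Lyve1 (a mean of 7.61 CPM at 0 h and 26.1 at 24 h) and Des (4.84 and 9.68 CPM) were called higher. Lymphocyte markers summed to at most 9.96 CPM in every section. Of 8 such markers 2 were called lower at each time, Nkg7 with Cd3g at 24 h and Nkg7 with Cd3d at 36 h and 48 h, beside 18.6%, 12.4% and 20.9% of all genes. The part of these cell types in the changes was not tested.

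RNA from beneath the tissue also reached spots outside it. Scaled to the plain UMI total off the tissue, Ccl2 stood at 1.06 to 1.34 CPM at 0 h and at 14.8 to 63.7 after APAP, and Cxcl1 at 0.956 to 1.24 and 7.62 to 104.6. A UMI in a spot therefore does not place the transcript in a cell under that spot. With every spot thinned to 5000 UMIs, which left out 1 to 260 shallower spots per section, Ccl2 had a UMI in 0.773% to 1.09% of spots at 0 h and in 8.91% to 22.2% after injury. The unthinned shares were 3.23% to 5.63% and 20.6% to 61.1%. Cxcl1 had one in 0.483% to 0.716% of thinned spots at 0 h (the highest share with a 95% Wilson interval of 0.459% to 1.116%, which covers counting error only) and in 42.3% (39.9% to 44.8%) of spots of 24 h B, against 4.24% (3.51% to 5.13%) in 48 h D. Cxcl9 had one in 4.92% to 8.55% of spots at 0 h and in 0.433% to 3.90% after injury, with no overlap.

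To ask where in the injured tissue the ligands lay, spots poor in hepatocyte RNA were compared with spots far from them. A spot was called hepatocyte-low when the mean log level of the 6 hepatocyte markers lay under the 1st percentile reached by 0 h spots, a rule that uses no chemokine, and far spots lay at least 3 grid steps from any such spot. By this limit 0.72% to 1.52% of spots were hepatocyte-low at 0 h, and 1.14% to 6.28% at 48 h. The shares were smaller than at 0 h at 24 h (0.44% and 0.18%) and 36 h (0.46% and 0.15%). Among the 6 markers, Hp averaged 2788 CPM at 0 h and 18117 at 24 h, and Cyp2e1 2428 and 345. Sections 48 h A, C and D had at least 20 hepatocyte-low spots (114, 165 and 47), and the other 5 injured sections had 3 to 17 and were left out of that comparison. In these 3 sections 5 of 10 members were higher in hepatocyte-low spots and 1 was lower, beside 26.6% and 26.7% of all genes. Higher were Ccl7 (log2 2.35 ± 0.10), Ccl2 (2.01 ± 0.11), Ccl6 (1.91 ± 0.09), Cxcl2 (1.56 ± 0.39) and Ccl9 (0.30 ± 0.10), with edgeR adjusted p of 1.05e-16, 4e-14, 4.56e-16, 0.00127 and 0.00977, and Cxcl1 was lower (-0.82 ± 0.14, adjusted p = 9.56e-06).

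Levels within a class of spots are in class CPM, scaled to the plain UMI total of that class without TMM. Ccl2 stood at 258 in hepatocyte-low and 44.8 in far spots of 48 h A, 139 and 29.4 in 48 h C, and 142 and 18.4 in 48 h D. Ccl7 stood at 211 and 29.5, 134 and 19.1, and 122 and 14.8 in the same sections, so both were several-fold higher in the hepatocyte-low class of all 3. Cxcl2 rested on 15, 14 and 1 UMIs in hepatocyte-low spots and was low in 48 h D. At the 5th percentile limit, over all 8 injured sections, neither Cxcl2 (0.69, adjusted p = 0.185) nor Ccl9 (0.07, adjusted p = 0.571) was called. The Ccl9 call was lost without 48 h C (adjusted p = 0.0744) or 48 h D (0.158). The median gene stood 0.55 higher in hepatocyte-low spots under total-count scaling, where the share of called genes that were higher moved from 49.9% to 82.8%. Cxcl1 then stood at -0.28 (adjusted p = 0.0764), since its class CPM were 40.9 and 42.8 in 48 h A, 23.0 and 31.8 in 48 h C and 6.50 and 9.03 in 48 h D.

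Ring 1, the spots that touch a hepatocyte-low spot, was compared with far spots in 24 h A, 36 h A and all 4 sections at 48 h. Ccl7 (0.93 ± 0.14), Ccl2 (0.84 ± 0.14) and Ccl6 (0.63 ± 0.10) were higher there on the log2 scale (edgeR adjusted p = 7.54e-06, 0.000219 and 5.59e-05), 3 of 10 members beside 2.68% of all genes. By time, 24 h A alone gave differences of 0.30 for Ccl7, 0.59 for Ccl2 and 0.04 for Ccl6. Section 36 h A alone gave 1.31 for Ccl7 and 0.94 for Ccl6, with Ccl2 at 1.88 times its far level. With 1 section each, these 2 times have no replicate. Over the 4 sections at 48 h, Ccl7 (1.18), Ccl2 (1.02) and Ccl6 (0.92) were called. The pooled values of this paragraph weight the 3 times equally, so 24 h A and 36 h A each count as much as all of 48 h. Cxcl1 (-0.40 ± 0.13, adjusted p = 0.0399) and Cxcl12 (-0.28 ± 0.08, adjusted p = 0.0132) were lower, 2 of 10 beside 8.51%. Both lower calls were lost under total-count scaling and in DESeq2. The Cxcl1 call was also lost without 24 h A (-0.08, adjusted p = 0.823) or 48 h C (0.0661), and the Cxcl12 call without 36 h A (0.131).

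Setting the limit at the 5th percentile of 0 h spots let all 8 injured sections enter, with 28 to 340 hepatocyte-low spots each, and gave a value per time point. In those spots the 6 hepatocyte markers, which also define the class, summed to 48242 to 68112 class CPM, against 89651 to 107770 in far spots. At 24 h, Ccl7 (1.69 ± 0.15), Ccl2 (1.403 ± 0.23) and Ccl6 (1.35 ± 0.21) were higher and Cxcl1 lower (-1.09 ± 0.14), 3 and 1 of 10 members beside 8.29% and 10.6% of all genes (edgeR adjusted p = 6.61e-10, 0.00196, 0.00119 and 3.82e-07). At 36 h, the same 3 were higher, Ccl7 by 2.28 ± 0.22, Ccl2 by 2.003 ± 0.32 and Ccl6 by 1.72 ± 0.22 (adjusted p = 9.65e-10, 0.00155 and 0.000331), and none was lower, beside 8.42% and 11.8%. Without 24 h B the Ccl2 call at 24 h was lost (1.24, adjusted p = 0.0733).

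At 48 h, 5 were higher and 2 lower in hepatocyte-low spots, beside 32.8% and 28.9% of all genes. The higher ones were Ccl7 (2.42 ± 0.09), Ccl2 (2.07 ± 0.14), Ccl6 (2.06 ± 0.13), Cxcl2 (1.30 ± 0.34) and Cxcl10 (1.02 ± 0.23), with edgeR adjusted p of 1.16e-21, 5.93e-07, 1.89e-07, 0.0013 and 0.00318. Cxcl1 (-0.57 ± 0.10, adjusted p = 4e-06) and Ccl24 (-0.30 ± 0.12, adjusted p = 0.0248) were lower. Without 48 h A the Cxcl2 call was lost (adjusted p = 0.0514) and without 48 h C the Ccl24 call (0.217). Both lower calls were lost under total-count scaling, which put the median gene 0.48 higher in these spots and turned Ccl24 to 0.15.

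The level of Ccl6 was 126 class CPM in hepatocyte-low and 54.7 in far spots of 24 h A and 317 and 75.8 in 24 h B. It was 255 and 44.4 in 36 h A, 383 and 118 in 36 h B, and 384 and 71.2, 565 and 104.4, 733 and 117, and 694 and 121 in 48 h A to D. Hepatocyte-low spots exceeded far spots in all 8 sections for Ccl6, Ccl2 and Ccl7. They held 1.505% to 12.6% of all UMIs of a section but 4.61% to 37.1% of the Ccl2 UMIs, 5.03% to 40.7% of the Ccl7 UMIs and 4.69% to 35.7% of the Ccl6 UMIs.

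Cxcl1 went the other way at 24 h. It stood at 34.8 class CPM in hepatocyte-low and 50.8 in far spots of 24 h A, and at 63.7 and 125.0 in 24 h B, a call that held under total-count scaling. At 36 h and 48 h the classes were close in class CPM, with 27.6 and 21.2 in 36 h A, 11.96 and 15.3 in 36 h B, and 40.8 and 42.9, 44.9 and 49.2, 27.4 and 34.8, and 11.6 and 8.62 in 48 h A to D.

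**Figure D3:**
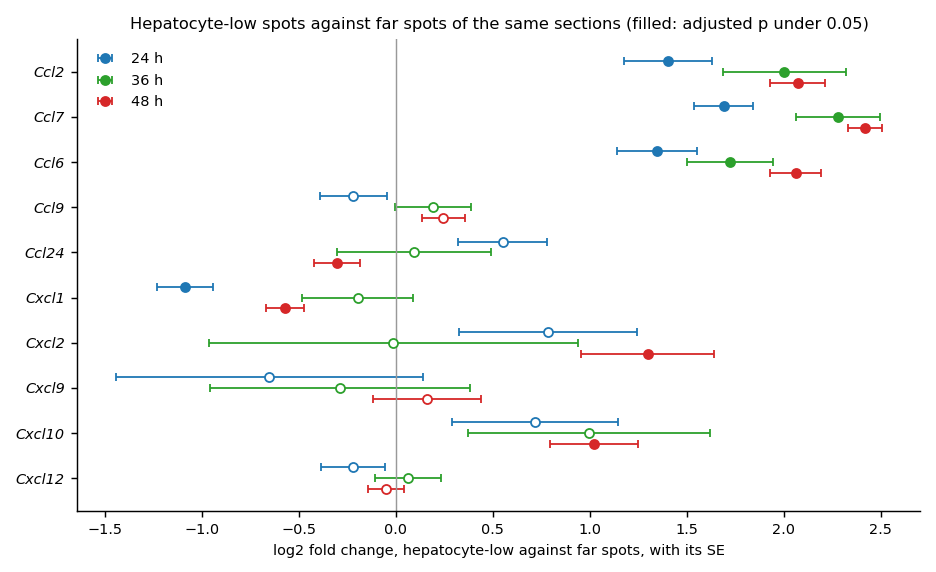
Log2 fold change between hepatocyte-low spots (5th percentile) and far spots of the same sections (x axis) for each ligand at 24, 36 and 48 h, with bars of 1 SE and filled points where the adjusted p was under 0.05. Ccl2, Ccl7 and Ccl6 lie near 1.4 to 2.4 at all times, and Cxcl1 lies below 0 at 24 and 48 h.

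The contrast of hepatocyte-low with far spots differed between 24 h and 48 h for 3 of 10 members, beside 14.9% of all genes in either direction. The log2 contrast of Ccl7 was 0.73 ± 0.17 larger at 48 h (edgeR adjusted p = 0.0027), that of Cxcl1 0.52 ± 0.18 larger (0.0453), meaning less negative, and that of Ccl24 -0.85 ± 0.26 (0.0207), from 0.55 at 24 h, not called, to -0.30 at 48 h. The Ccl7 difference was lost without 24 h A (adjusted p = 0.159). That of Ccl24 was lost without 24 h B (0.816) or 48 h C (0.0572). The Cxcl1 difference was lost without 24 h A (0.0607), 24 h B (0.51), 36 h A (0.0551), 36 h B (0.0547), 48 h A (0.0946), 48 h B (0.0676) or 48 h D (0.0758). For 36 h minus 24 h and 48 h minus 36 h, edgeR called 0 of 10 members, beside 0.341% and 0.413% of all genes. At an unadjusted p under 0.05, 2 of 10 passed for 36 h minus 24 h and 0 for 48 h minus 36 h, and DESeq2 called 0 in both.

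At 0 h the same 5th percentile rule, added after the data were seen, marked 81, 157 and 114 spots whose summed hepatocyte markers were not lower (91049 to 96776 against 88789 to 89495 class CPM in far spots). Of 8 members tested there, Ccl9 alone was called, higher by 0.26 ± 0.06 (edgeR adjusted p = 0.00234), beside 3.47% of all genes. The call was lost without 0 h replicate 2 (0.144). Of the cholangiocyte markers tested, Spp1 (log2 1.29) and Krt19 (1.58) were called higher in these 0 h spots, and Epcam (1.15) and Sox9 (0.94) were not called. The part of these cells in the Ccl9 call was not tested. Ccl7 and Cxcl2 were too rare at 0 h to be tested.

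Distance profiles show how far the levels reached. In 48 h C, Ccl6 measured 733 class CPM (95% Poisson interval 714 to 753) in hepatocyte-low spots, 278 in touching spots, 134 at 2 steps, 117 at 3 steps and 118 beyond. Ccl2 in the same section went from 131 to 47.7, 21.7, 17.6 and 22.9, and Ccl7 from 111 to 37.1, 13.6, 14.3 and 11.5. In each of these 3 the level dropped over the first 2 steps and changed little beyond. In 48 h B it was higher again at 4 or more steps, where Ccl2 measured 79.5 class CPM against 39.1 at 3 steps. Cxcl1 in 24 h B ran from 63.7 (51.0 to 78.5) through 97.9, 120.6 and 129 to 119.8 class CPM, thus rising with distance over the first 3 steps.

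**Figure D4:**
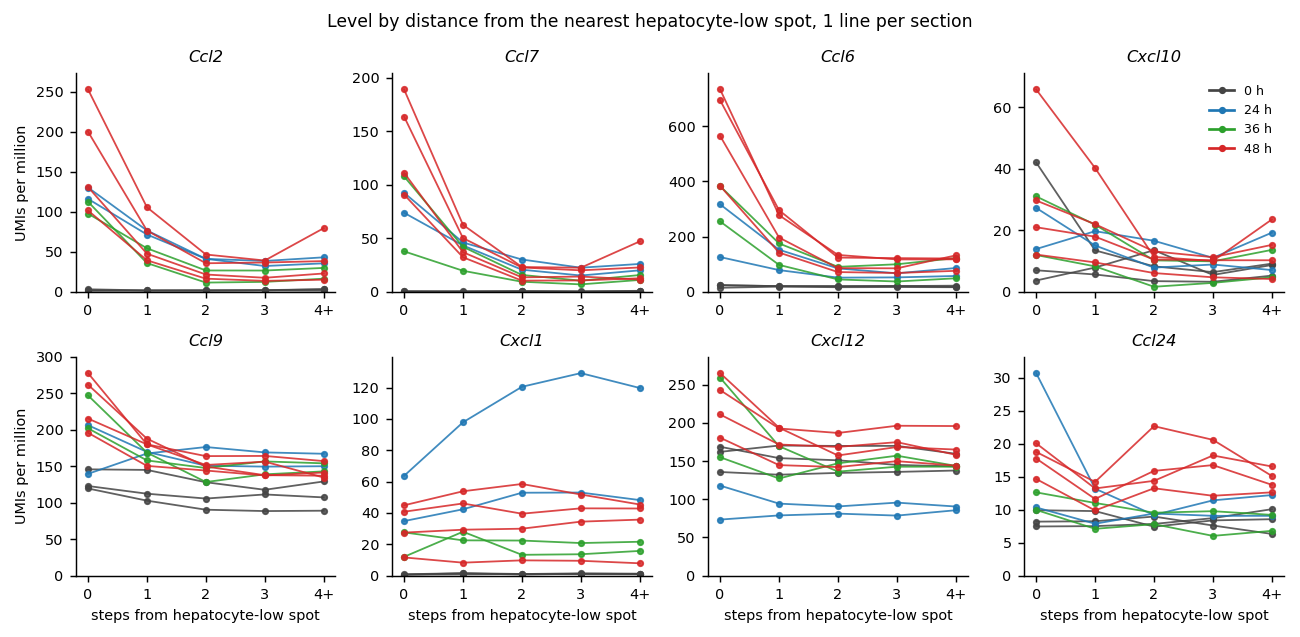
Level in class CPM of the spots at each distance (y axis, linear, from 0) against grid steps from the nearest hepatocyte-low spot at the 5th percentile (x axis, 4+ means 4 or more), with 1 line per section coloured by time. Ccl2, Ccl7 and Ccl6 are highest at 0 steps in all 8 injured sections and lower at 1 and 2 steps, and Cxcl1 rises over the first 3 steps in 24 h B.

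Markers of leukocytes and of myofibroblasts moved with the same classes. Of all genes, 8.29%, 8.42% and 32.8% were called higher in hepatocyte-low spots (5th percentile) at 24, 36 and 48 h. At 48 h, all 6 tested neutrophil markers, 6 of 7 recruited monocyte, all 8 Kupffer cell and all 4 mononuclear phagocyte markers were higher in hepatocyte-low spots, and summed mononuclear phagocyte markers were 2405 to 5257 class CPM there against 509 to 975.2 in far spots. At 24 h the sums were 967 and 1243 against 566 and 453. Of these phagocyte markers, Lyz2 (log2 1.15) and Cd68 (0.88) were called at 24 h, whereas Csf1r (0.25) and Cd5l (0.24) were not. Neutrophil markers summed to 105.3 and 419 in hepatocyte-low spots at 24 h against 37.2 and 98.1 in far spots, while Cxcl1 was lower in the former. All 4 myofibroblast markers (Acta2, Col1a1, Col1a2 and Col3a1) were higher in hepatocyte-low spots at 36 h and 48 h, as were Acta2 and Col1a2 at 24 h, with log2 differences at 48 h of 2.15, 2.13, 2.06 and 1.64. The part of these cells in the member contrasts was not tested.

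The genes most like each member across the spots of a section were named by the mean of Pearson's r over the 8 injured sections, among 7416 genes. For Ccl2 they were Lyz2 (0.52), Tmsb4x (0.51) and Ftl1 (0.50), for Ccl7 Lyz2 (0.51), Tmsb4x (0.50) and Psap (0.49), and for Ccl6 Tmsb4x (0.65), Lyz2 (0.65) and Psap (0.61). The highest values for the other members were 0.24 or less, which in sparse counts is a description only. They were Tyrobp, Ccl6 and Pf4 for Ccl9, Cd5l, Marco and Clec4f for Ccl24, and Ahsg, Fgb and Apob for Cxcl1. For Cxcl2 they were Ccl2, Ccl7 and Lyz2, for Cxcl9 AW112010, Cxcl10 and Saa3, for Cxcl10 Rsad2, Fth1 and Ccl2, and for Cxcl12 Igfbp7, Bgn and Col3a1. Spots of a section share their library and differ in depth.

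Among the members, Ccl2 and Ccl7 were found together in a thinned spot 1.61 to 3.06 times (median 2.16) as often as their separate shares would give, over the 8 injured sections. The ratio was 1.44 to 2.07 for Ccl6 with Ccl7 and 1.37 to 2.11 for Ccl2 with Ccl6. With Cxcl10 the ratio was 1.25 to 1.71 for Ccl2, 1.14 to 1.30 for Ccl6 and, over 7 sections, 1.44 to 2.29 for Ccl7. For Ccl2 with Cxcl1 it was 0.745 to 1.68 with a median of 0.915, and for Ccl9 with Cxcl12 it was 0.988 to 1.079.

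The share of UMIs in the top spots, which rises as a gene gets rarer, was described for each member. The top 1% of spots held 21.8% to 50% of the Cxcl10 UMIs and 17.5% to 40.3% of the Cxcl9 UMIs, whereas they held 3.06% to 4.41% of the Ccl9 UMIs and 2.88% to 4.35% of the Cxcl12 UMIs, and the deepest 1% of spots held 1.79% to 2.62% of all UMIs. In single spots Cxcl10 reached 55 UMIs in 0 h replicate 2, 68 in 0 h replicate 4 and 115 in 48 h B, but only 5 in 0 h replicate 3 and 9 in 36 h B. Spots next to each other shared Cxcl10 UMIs 3.15 to 10.3 times as often as an even spread would give at 0 h and 1.02 to 2.74 times after injury. The variance of Cxcl10 over its mean in thinned spots was 1.15 to 3.32 at 0 h and 1.22 to 4.24 after injury, against 0.985 to 1.09 for Cxcl12 after injury, where 1 is an even spread. After injury this ratio was 1.51 to 2.59 (median 1.98) for Ccl6, beside a median of 1.68 for Cxcl10. For Cxcl9 it was 0.996 to 1.99 (median 1.16), the lowest in 24 h B, which held only 7 thinned Cxcl9 UMIs. Spots next to each other shared Cxcl9 UMIs 0 to 11.5 times (median 2.50) as often as an even spread would give. The 11.5 was again 24 h B.

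**Figure D5:**
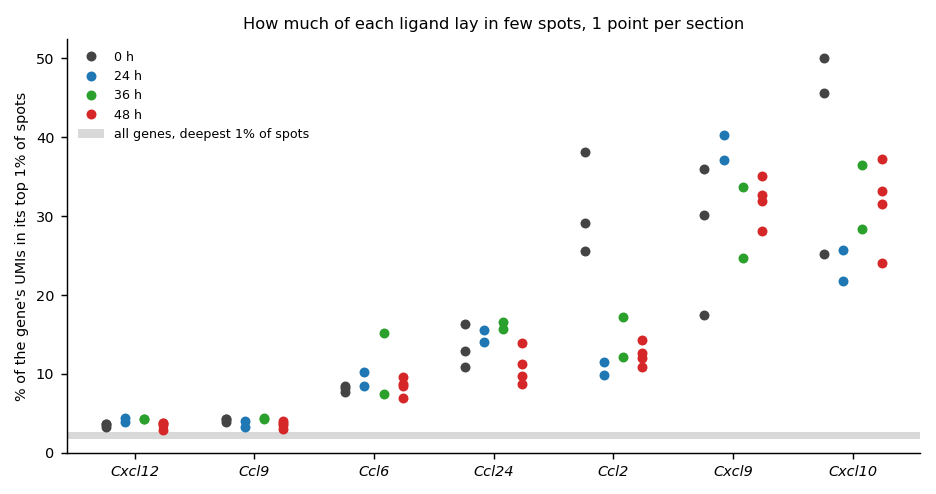
Percent of a ligand's UMIs that lay in its top 1% of spots (y axis, from 0), with 1 point per section coloured by time for 7 ligands (x axis), and a grey band for the deepest 1% of spots over all genes. Cxcl12 and Ccl9 lie between 2.88% and 4.41%, and Cxcl10 between 21.8% and 50%.

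In uninjured liver, the position of the ligands in the lobule was tested between the 25% of spots richest in portal and the 25% richest in central hepatocyte genes of each 0 h section, 8 members having enough UMIs. Higher in portal spots were Ccl9 (0.87 ± 0.04), Cxcl1 (0.95 ± 0.31), Ccl24 (0.52 ± 0.12) and Ccl6 (0.29 ± 0.08) on the log2 scale (edgeR adjusted p = 2.61e-25, 0.0178, 0.000561 and 0.00397), 4 of 8 beside 13% of all genes, and none was lower, beside 11.9%. Ccl9 stood at 114.4 and 66.1 class CPM in portal and central spots of section 2, 134 and 77.4 in section 3, and 164 and 93.1 in section 4. Cxcl12 stood at 167 and 173, 153 and 149.7, and 128 and 139 in the same sections, with the classes close in each.

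Only the Ccl9 call held in every alternative run for this contrast. The outer 10% in place of 25% of spots gave no call for Ccl6 (adjusted p = 0.113). DESeq2 did not call Cxcl1 (adjusted p = 0.417), Ccl24 (0.197) or Ccl6 (0.398). Cxcl1 rested on 7 to 24 UMIs per class and was lost without 0 h replicate 2 (0.215) or replicate 4 (0.145), and Ccl24 (0.0994) and Ccl6 (0.341) were lost without replicate 3. All 8 Kupffer cell markers were also higher in portal spots, with a median log2 difference of 0.42, beside 13% of all genes. All 4 tested cholangiocyte markers were higher by more, Spp1 by 3.18, Epcam by 3.14, Krt19 by 2.74 and Sox9 by 1.68. Of the myofibroblast markers Acta2 was higher by 2.12, whereas Col1a1 (0.16), Col1a2 (0.10) and Col3a1 (0.02) were not called. The part of these cells in the member differences was not tested.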

How the data were processed

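Visium sections of mouse liver were analysed from the UMI counts per gene and spot that the authors deposited, made per the file headers and the submitters' processing notes with Space Ranger 1.0.0 on mm10; the notes also name Seurat 4.1.1. The deposited counts were not normalized. Members and gene lists were chosen with earlier results of these data known.

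Tissue spots were kept at 800 genes or more and at most 20% mitochondrial UMIs, and were summed per section, or per class and section for classes of at least 20 spots. The sums, 31292663 to 67045372 UMIs, were compared with edgeR 4.0.16 (R 4.3.3, filterByExpr, TMM, robust quasi-likelihood test, all sections in 1 fit), adjusted by Benjamini-Hochberg over all genes tested and called at an adjusted p under 0.05. Scripts were tested on simulated data. Hepatocyte scores used spots thinned to 2000 UMIs. Alternatives were total-count and relative log expression scaling, DESeq2 1.42.0, no filter, all tissue spots, only the groups compared, other class limits, the replicate letter as a block, and leaving out each section. The 1st percentile was the limit set for hepatocyte-low spots, and because it left too few spots at 24 h and 36 h, values per time rest on the 5th percentile alternative.

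All members were named, with the receptors and other ligands that reached a mean of 1 CPM at any time (1 of them is not reported here), and the 3 genes most like each member among those of at least 10 CPM. Cxcr2, Cxcr3, Chil3, Fn1, Tnf, Tnfaip3, Nfkbiz, Nfkbia, Il1b, Nkg7, Cd3g, Cd3d, Lyve1 and Des were named after their values were seen. So were the named myofibroblast, cholangiocyte, mononuclear phagocyte and Kupffer cell markers. Cxcr2 is in both the receptor and the neutrophil list, and Ccr2 in both the receptor and the monocyte list. Cd5l is in both the Kupffer cell and the mononuclear phagocyte list. Replicate letters did not pair the sections. Wilson and Poisson intervals cover counting error only.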

Additional observations from a re-analysis of the deposited data

Results flagged for a closer look

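Among 30 groups of 4 sections at 48 h tested for a section far from the others, 1 stood out, and chance gives about 1 in 20. Cxcl14 measured 10.8, 9.72, 20.03 and 9.42 CPM in 48 h A to D, and the gap from section C to the next was 0.867 of the range.

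The contrast of hepatocyte-low with far spots (5th percentile) differed between 48 h and 24 h for 3 members by edgeR's test of the difference itself. The log2 difference was 0.73 for Ccl7, 0.52 for Cxcl1 and -0.85 for Ccl24. Each was lost when at least 1 section was left out, as given with the result, and the cause was not tested.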

How the results depend on the processing

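Of the values recomputed for called and other reported results, 1304 kept their direction and side of the threshold, 98 lost and 11 gained a call, and 2 turned. Both turned under total-count scaling, Cxcl12 at 48 h against 0 h to 0.20 and Ccl24 in hepatocyte-low spots at 48 h to 0.15. Of 97 member values that passed no test and are not given, 55 changed sign and 25 were called under at least 1 alternative.

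Counts of called members moved as follows. Total-count scaling gave 0 lower at 36 h and 1 at 48 h against 0 h, 1 higher at 48 h against 36 h, 2 higher at 48 h against 24 h, and 0 lower for hepatocyte-low spots, for ring 1, for hepatocyte-low spots at 48 h and for 48 h minus 24 h. DESeq2 gave 2 lower at 36 h against 24 h, 2 higher at 48 h against both 36 h and 24 h, 0 lower in ring 1 and for 48 h minus 24 h, 1 lower in hepatocyte-low spots at 48 h, 0 higher in those at 0 h and 1 higher in portal spots. Relative log expression scaling gave 1 lower at 36 h against 24 h. No filter gave 1 lower at 48 h against 0 h, 1 higher at 48 h against 36 h, 2 lower in hepatocyte-low spots and 5 higher for 48 h minus 24 h. The outer 10% of the zonation score gave 2 higher in portal spots. Only the groups compared gave 0 higher at 36 h against 24 h. The cause of these moves was not tested.

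Leaving out 1 section gave 4 to 6 higher and 1 to 2 lower at 48 h against 0 h, 3 to 5 higher and 0 to 1 lower at 36 h, and 1 to 2 lower at 24 h. It gave 0 to 1 higher and 0 to 2 lower at 36 h against 24 h, 0 to 1 higher at 48 h against 36 h, and 1 to 2 higher and 0 to 1 lower at 48 h against 24 h. In hepatocyte-low spots it gave 4 to 5 higher and 1 to 2 lower, in ring 1 it gave 3 to 4 and 1 to 2, and at the 5th percentile 1 to 2 lower at 24 h and at 48 h, 1 to 3 higher and 0 to 1 lower for 48 h minus 24 h, and 0 to 1 lower at 0 h. Portal spots had 2 to 4 higher. Where a lone section stood for a time, it was assumed to vary like the other groups.

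With the replicate letter as a block, which does not pair these sections (correlations of deviations between -0.293 and 0.367), 0 members were higher at 36 h against 24 h and 0 at 48 h against 24 h, Cxcl12 standing at 0.64 (edgeR adjusted p = 0.115) and 0.77 (0.0554). Differences between times could not be given at the 1st percentile. Cxcl2, and Cxcl1 at 0 h, are limited by depth.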
